A study of Mus musculus with 12 samples.

Results

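The Hedgehog pathway was described through 9 genes in mouse spinal cord: the ligand gene *Shh*, the receptor gene *Ptch1*, the transducer gene *Smo*, the co-receptor genes *Boc* and *Cdon*, the decoy gene *Hhip* and the transcription factor genes *Gli1*, *Gli2* and *Gli3*. The members were chosen by symbol. A probe was used if it was annotated to a member alone, which gave 23 probes, and each gene was read from its probe of highest mean signal. They are 9 of 18194 genes with such a probe. *Shh*, *Ptch1*, *Smo*, *Boc*, *Cdon*, *Hhip* and *Gli3* had a mean signal above 50, the study's cutoff, in at least 1 group and were tested among 10511 genes, whereas *Gli1* and *Gli2* lay under 50 in every group and were not tested.

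Each array measured the spinal cord of 1 female C57BL/6 mouse (C57BL/6J in the study's methods), with 12 arrays in 4 groups of 3. Young mice were 2 to 3 months old and aged mice 15 to 18 months old. The intact mice, naive in the study's methods, had no injury. The injured mice had received a contusion at the Th9 level, and this segment was taken 9 days after spinal cord injury (SCI). They had also had anesthesia and a laminectomy. The effects of surgery and of contusion cannot be told apart, and SCI stands for both below. Such a segment mixes neurons, glia, meninges and vessels with blood-borne cells that arrive after SCI, and in it fewer cells of a type and less RNA per cell cannot be told apart.

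Hedgehog ligands bind Ptch1, which holds Smo inactive in their absence. Once Smo is released, Gli proteins are kept from being cut into repressors and switch on target genes, among which are the inhibitors *Ptch1* and *Hhip* and the activator gene *Gli1*. The pathway patterns the ventral spinal cord of the embryo, and in the adult nervous system neurons are a known source of Shh while astrocytes are known to respond to it.

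Signals are MAS 5.0 intensities on a linear scale, in which 1 array's values can be set against another's for the same probe, and not 1 gene's against another's. Per array, the median signal was 20.4 to 23.9 and 35.0% to 36.7% of probes exceeded 50. Differences were tested on log2 signals with limma, and a gene was called at a Benjamini-Hochberg adjusted p under 0.05 over all genes tested. The neuron markers were all above 50 in all groups, as were the astrocyte and oligodendrocyte markers, whereas 5 of 6 motor neuron markers, among them *Chat*, lay under 50 in every group. Aged injured replicate 1 stood apart from the other aged injured arrays: the summed signal of 11 neuron markers was 1625 there, against 11273 and 7144 in replicates 2 and 3. The members' values in aged injured cord are therefore also given without it.

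The promoters of *Ptch1* and *Hhip*, whose signals fell together after SCI, and of *Smo*, whose signal rose, are shown because Gli proteins are known to act on target genes through a short DNA motif. The windows are the 250 bases before each gene's start, read 5′ to 3′ on the gene's strand, from RefSeq on build GRCm38.p6. They lie at chr13:63565736-63565985 (minus strand) for *Ptch1*, chr8:80058009-80058258 (minus strand) for *Hhip* and chr6:29735247-29735496 (plus strand) for *Smo*. Capitals mark CCACCC, the core of the Gli motif GACCACCCA.
Ptch1: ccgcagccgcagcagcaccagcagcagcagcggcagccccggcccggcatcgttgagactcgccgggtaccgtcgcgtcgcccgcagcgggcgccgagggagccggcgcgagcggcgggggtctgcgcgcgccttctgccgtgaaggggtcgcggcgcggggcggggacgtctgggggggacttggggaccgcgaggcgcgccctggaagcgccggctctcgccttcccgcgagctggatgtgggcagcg
Hhip: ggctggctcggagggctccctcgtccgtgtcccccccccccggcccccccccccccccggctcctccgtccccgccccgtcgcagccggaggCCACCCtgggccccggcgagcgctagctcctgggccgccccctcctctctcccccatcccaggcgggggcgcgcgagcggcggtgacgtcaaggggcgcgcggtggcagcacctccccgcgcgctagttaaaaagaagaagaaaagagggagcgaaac
Smo: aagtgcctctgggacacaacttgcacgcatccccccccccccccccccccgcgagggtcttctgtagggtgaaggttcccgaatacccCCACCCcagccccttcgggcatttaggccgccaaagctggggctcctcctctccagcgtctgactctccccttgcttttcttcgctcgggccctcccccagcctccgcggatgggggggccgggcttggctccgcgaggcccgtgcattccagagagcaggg
The table of promoters held 6 of the 9 members, and *Shh*, *Boc* and *Gli1* are not among them. Over each window and the 50 bases after the start, on both strands, the full motif GACCACCCA was in 0 of the 6 and in 83 of all 32851 promoters, or 0.253%. The core CCACCC, which is part of the full motif, was in *Smo*, *Hhip*, *Gli2* and *Gli3* and not in *Ptch1* or *Cdon*. Since 31.5% of all promoters held the core, a match describes the letters and not a bound site, and no match concerns these letters in this window only.

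SCI lowered *Shh*, *Ptch1* and *Hhip* in young and in aged mice, and raised *Smo* in both. *Boc* and *Cdon* were higher after SCI in young mice. In young mice 6 of the 7 members tested were called, 3 higher and 3 lower, beside a background of 68% of all genes tested (33.9% higher and 34.1% lower). In aged mice 4 of 7 were called, *Smo* higher and *Shh*, *Ptch1* and *Hhip* lower, beside a background of 75.5% (35.6% higher and 39.9% lower). With 7 members tested, the share called was above the background in young mice and under it in aged mice. Neither is read as a result about the members. The members' median log2 difference was 0.24 in young and 0.034 in aged mice, beside -0.0048 and -0.042 over all genes.

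**Figure D1:**
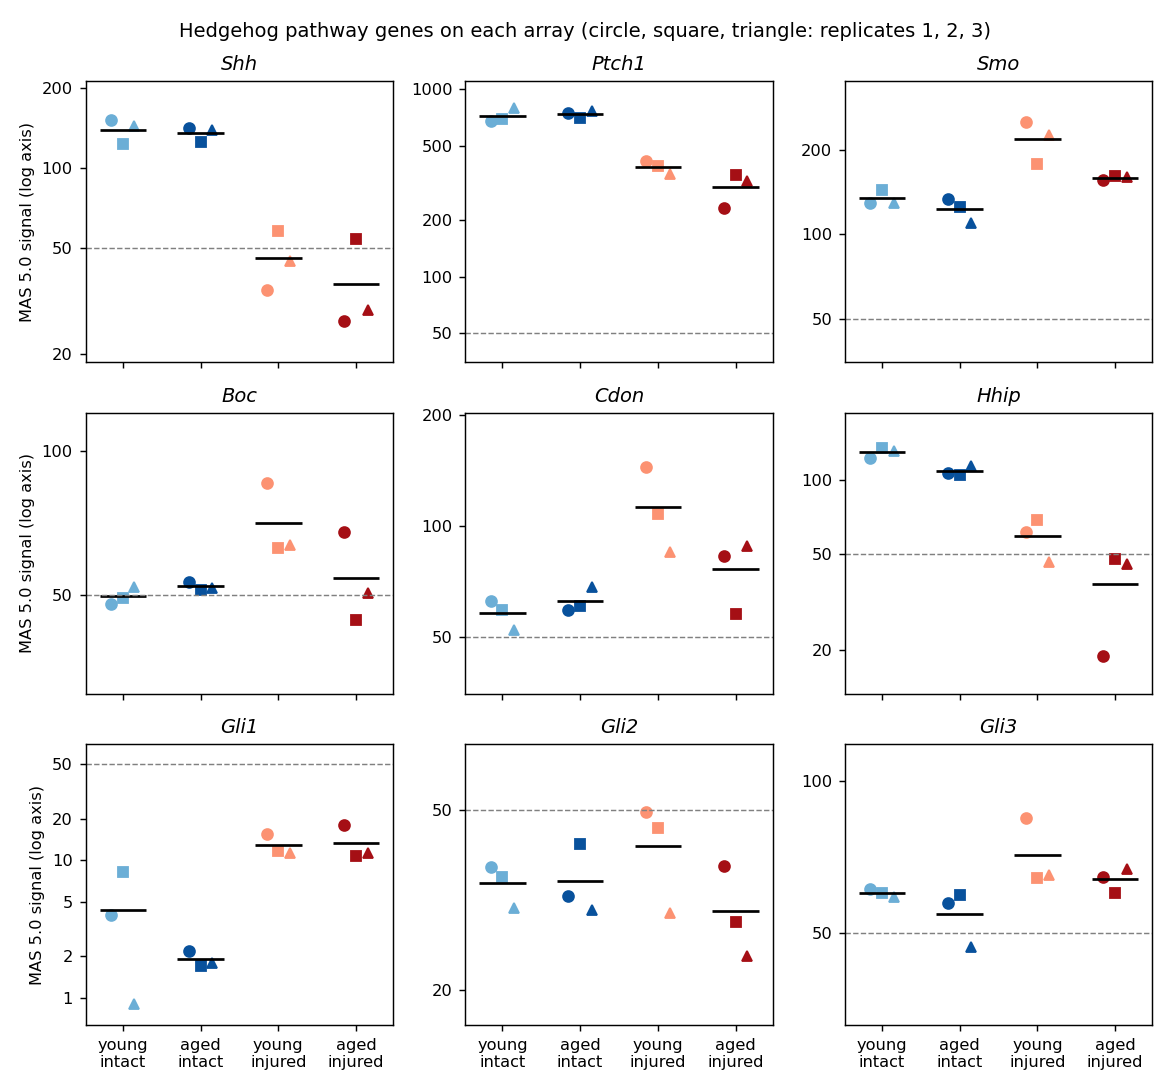
MAS 5.0 signal of the 9 Hedgehog genes on each array (log axis), by group; each point is 1 mouse, horizontal lines are group means (n = 3) and the dashed line is the cutoff of 50. *Shh*, *Ptch1* and *Hhip* lie lower in every injured than in every intact cord, and all 12 *Gli1* and *Gli2* signals lie under 50.

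*Shh*, which encodes the ligand Sonic hedgehog, was read from probe 1436869_at. Its signal was 151.7, 122.9 and 144.2 in the young intact mice, 141.1, 125.1 and 138.9 in the aged intact mice, 34.8, 58.2 and 44.9 in the young injured mice and 26.6, 53.9 and 29.3 in the aged injured mice. Every injured cord lay below every intact cord, and the ages overlapped. In young mice the mean fell from 140 ± 14.9 to 46.0 ± 11.7 (SD, n = 3 each), at least 2.79-fold lower with the injured mean set to the cutoff (log2 difference -1.63, SE 0.25, adjusted p = 0.000221 from limma). In aged mice it fell from 135 ± 8.67 to 36.6 ± 15.0 (SD, n = 3 each), at least 2.70-fold lower (log2 difference -1.96, SE 0.25, adjusted p = 4.39e-05), and the log2 difference was -1.76 without aged injured replicate 1.

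Neuron markers moved with *Shh*. Their summed signal was 22831 to 24000 in young intact, 23354 to 24047 in aged intact, 7804 to 12150 in young injured and 1625 to 11273 in aged injured mice. None of the 11 was under 50 as a group mean. After SCI 6 of 11 were lower in young mice and 11 of 11 in aged mice, among them *Rbfox3*, which encodes NeuN (log2 difference -2.12 and -3.30). Without aged injured replicate 1, 11 of 11 were lower in both. Their part in the fall of *Shh* was not tested.

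*Ptch1*, the receptor that holds Smo inactive and is itself a target of the pathway, was read from probe 1428853_at. It had 679.8, 696.0 and 790.6 in the young intact mice, 747.2, 703.8 and 765.8 in the aged intact mice, 416.5, 389.2 and 352.2 in the young injured mice and 231.9, 350.5 and 322.9 in the aged injured mice. Every injured cord lay below every intact cord, and every aged injured cord below every young injured cord. The mean fell from 722 ± 59.8 to 386 ± 32.3 in young mice (SD, n = 3 each), 1.87-fold (log2 difference -0.90, SE 0.14, adjusted p = 0.000181). In aged mice it fell from 739 ± 31.8 to 302 ± 62.1 (SD, n = 3 each), 2.45-fold (log2 difference -1.31, SE 0.14, adjusted p = 9.17e-06), and the log2 difference was -1.13 without aged injured replicate 1.

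*Smo*, the membrane protein that passes the signal on, moved the other way, by its probe 1427049_s_at. Its signal was 129.4, 144.0 and 129.9 in the young intact mice, 133.3, 125.1 and 109.8 in the aged intact mice, 251.7, 178.6 and 226.1 in the young injured mice and 156.5, 161.1 and 160.5 in the aged injured mice. The injured cords of each age lay above the intact cords, and the aged injured below the young injured. The mean rose from 134 ± 8.29 to 219 ± 37.1 in young mice (SD, n = 3 each), 1.63-fold (log2 difference 0.69, SE 0.12, adjusted p = 0.000494). In aged mice it rose from 123 ± 11.9 to 159 ± 2.50 (SD, n = 3 each), 1.30-fold (log2 difference 0.38, SE 0.12, adjusted p = 0.0136). The call in aged mice ended without aged intact replicate 3 (log2 difference 0.30, adjusted p = 0.0598), and the log2 difference was 0.39 without aged injured replicate 1.

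*Boc* and *Cdon* encode membrane proteins that bind the ligand and present it to Ptch1. *Boc*, by probe 1427516_a_at, had 47.9, 49.4 and 52.1 in the young intact mice, 53.4, 51.4 and 51.9 in the aged intact mice, 86.0, 62.9 and 63.7 in the young injured mice and 67.9, 44.5 and 50.6 in the aged injured mice. The young injured cords lay above the young intact cords, while the aged groups overlapped. In young mice the mean rose from 49.8 ± 2.13 to 70.9 ± 13.1 (SD, n = 3 each), at least 1.42-fold (log2 difference 0.49, SE 0.17, adjusted p = 0.0212). This call ended with quantile normalization (adjusted p = 0.125) and without young intact replicate 1 or 2 or young injured replicate 1 (adjusted p of 0.0608, 0.0517 and 0.0931). In aged mice the log2 difference was 0.034 (95% interval -0.33 to 0.40, adjusted p = 0.861), and -0.14 without aged injured replicate 1.

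*Cdon*, by probe 1434957_at, had 62.3, 59.1 and 52.2 in the young intact mice, 58.9, 60.7 and 68.0 in the aged intact mice, 144.6, 107.7 and 84.7 in the young injured mice and 82.9, 57.6 and 87.8 in the aged injured mice. All young injured cords lay above the intact cords, and aged injured replicate 2 lay among them. The mean rose from 57.9 ± 5.16 to 112 ± 30.2 in young mice (SD, n = 3 each), 1.94-fold (log2 difference 0.93, SE 0.20, adjusted p = 0.00198). In aged mice the means were 62.5 ± 4.82 and 76.1 ± 16.2 (SD, n = 3 each), with a log2 difference of 0.26 (95% interval -0.18 to 0.71, adjusted p = 0.253), and of 0.19 without aged injured replicate 1.

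Markers of several other cell types were higher after SCI together with *Smo* at both ages and with *Boc* and *Cdon* in young mice, among them those of fibroblasts and meninges. Their summed signal over 10 markers was 5035 to 5719 in young intact, 3524 to 5188 in aged intact, 14514 to 19940 in young injured and 13432 to 18214 in aged injured mice. Of the 10 markers, 9 rose and none fell in young mice, and 7 rose and 1, *Dpt*, fell in aged mice. Among those that rose was *Col1a1*, a fibrillar collagen (log2 difference 2.37 and 4.22). *Postn* alone was under 50 in young intact cord, and *Postn* and *Col1a1* in aged intact cord. Of 12 markers of microglia and macrophages 11 rose at each age, and their summed signal was 1958 to 2163 in young intact, 2978 to 3281 in aged intact, 18778 to 24529 in young injured and 23854 to 27228 in aged injured mice. Of 5 oligodendrocyte precursor markers 3 rose in young and 4 in aged mice, and of 4 pericyte markers tested 3 and 2 rose. Their part in these results was not tested.

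*Hhip*, which encodes a decoy that binds Hedgehog ligands without signaling and is a target of the pathway, was read from probe 1455277_at. Its signal was 124.0, 135.8 and 132.1 in the young intact mice, 107.3, 105.6 and 114.1 in the aged intact mice, 61.6, 68.6 and 46.3 in the young injured mice and 18.9, 47.6 and 45.4 in the aged injured mice. Every injured cord lay below every intact cord, and the lowest was aged injured replicate 1. In young mice the mean fell from 131 ± 6.04 to 58.8 ± 11.4 (SD, n = 3 each), 2.22-fold (log2 difference -1.17, SE 0.29, adjusted p = 0.00467). In aged mice it fell from 109 ± 4.50 to 37.3 ± 16.0 (SD, n = 3 each), at least 2.18-fold (log2 difference -1.66, SE 0.29, adjusted p = 0.000376), and the log2 difference was -1.23 without aged injured replicate 1.

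Of the transcription factors, *Gli3*, which mainly acts as the repressor of the family, was read from probe 1456067_at. It had 61.0, 60.1 and 59.0 in the young intact mice, 57.4, 59.5 and 46.9 in the aged intact mice, 84.5, 64.4 and 65.2 in the young injured mice and 64.7, 60.1 and 66.9 in the aged injured mice. The injured cords of each age lay above the intact cords by a small margin. The log2 difference was 0.24 in young mice (95% interval -0.052 to 0.53, adjusted p = 0.129) and 0.23 in aged mice (95% interval -0.057 to 0.52, adjusted p = 0.128), and neither passed the test. In aged mice it was 0.22 without aged injured replicate 1.

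*Gli1*, an activator that is switched on by the pathway, had by its probe 1449058_at 4.0, 8.2 and 0.9 in the young intact mice, 2.2, 1.7 and 1.8 in the aged intact mice, 15.6, 11.6 and 11.4 in the young injured mice and 18.1, 10.8 and 11.3 in the aged injured mice. The injured cords lay above the intact cords, all of them under the cutoff, so no fold is given. With no filter on signal, limma gave adjusted p = 0.0229 in young and 0.00324 in aged mice. Every *Gli1* signal, however, lay under the lowest array median of 20.4. All were also under 20, so with signals under 20 set to 20 they would be equal. These p-values are therefore not read as a rise of *Gli1*. *Gli2*, the main activator before *Gli1* is made, had by its probe 1459211_at 37.4, 35.6 and 30.4 in the young intact mice, 32.2, 42.1 and 30.0 in the aged intact mice, 49.6, 45.7 and 29.6 in the young injured mice and 37.5, 28.3 and 23.8 in the aged injured mice. The 4 groups overlapped, and without the filter the adjusted p was 0.451 and 0.465.

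The other 14 probes of the members were a check. In young mice a second *Smo* probe had 45.7 ± 2.70 in intact and 72.0 ± 10.5 in injured cord, and a second *Hhip* probe 54.7 ± 15.6 and 26.3 ± 5.71 (SD, n = 3 each), in the direction of the first probes. A second *Boc* probe had 36.7 ± 3.82 in young intact and 51.4 ± 10.6 in young injured cord (SD, n = 3 each). In aged mice the group means of these 3 probes lay under 50. The other 11 probes, of which *Hhip* has 2, had group means under 50 in all 4 groups, and their direction is not read.

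**Figure D2:**
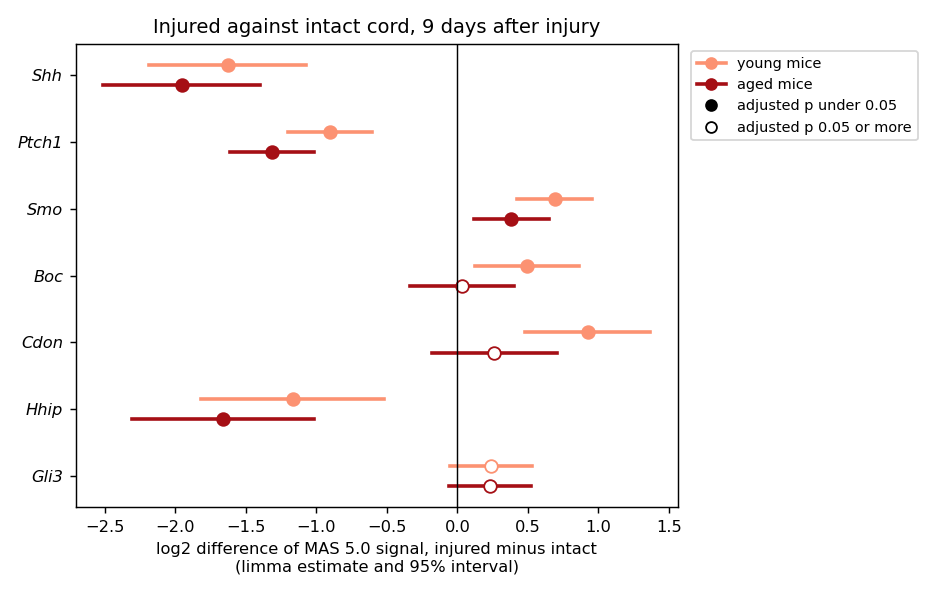
Log2 difference of MAS 5.0 signal, injured minus intact, for the 7 members tested (limma estimate with 95% interval, 12 arrays); filled points have an adjusted p under 0.05. *Shh*, *Ptch1* and *Hhip* lie left of 0 and *Smo* right of it at both ages, and the aged estimate lies left of the young one for all 7.

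The comparison of aged with young mice asked whether age changes these genes in the intact and in the injured cord. In intact cord no member was called, and none had an unadjusted p under 0.05 (adjusted p of 0.857 to 1), where 0.809% of all genes were called, 0.542% higher and 0.266% lower, and 10.2% had an unadjusted p under 0.05. The members' median log2 difference was -0.044, beside 0.0044 over all genes. The 95% interval for *Ptch1* ran from -0.26 to 0.33 and that for *Hhip* from -0.91 to 0.38. The ranges of *Hhip* did not overlap, at 124.0 to 135.8 in young and 105.6 to 114.1 in aged mice (log2 difference -0.26, adjusted p = 0.916). The share of all genes with such ranges is not given, here or for the other comparisons. Ranges that do not overlap are therefore not read as a result about the members.

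In injured cord all 7 members tested had a lower estimate in aged mice, and *Smo* alone was called. The background was 8.99% of all genes, with 4.41% higher and 4.58% lower. Leaving out aged injured replicate 2 gave 29.1%, leaving out aged injured replicate 1 gave 5.93% and leaving out young injured replicate 2 gave 2.81%. It was 0 of 9834 genes in a limma fit of only the injured arrays, where 1937 had an unadjusted p under 0.05. An unadjusted p under 0.05 with a lower signal was found for 5 members, where 16.4% of all genes had it. The members' median log2 difference was -0.39, beside -0.043 over all genes. The mean signal of *Smo* was 159 ± 2.50 in the aged and 219 ± 37.1 in the young injured group (SD, n = 3 each), 1.37-fold lower with age (log2 difference -0.44, SE 0.12, adjusted p = 0.0446). This call ended in a fit of only the injured arrays (adjusted p = 0.177), without the filter on signal (0.0657), without a trend of the spread (0.0507), with a replicate block (0.056) and without any single array (0.0536 to 0.114) other than young injured replicate 2 or aged injured replicate 2.

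*Ptch1* was 1.28-fold lower in aged injured mice with ranges that did not overlap (log2 difference -0.37, adjusted p = 0.0983). *Cdon* had a log2 difference of -0.55 (adjusted p = 0.0991), *Boc* of -0.39 (adjusted p = 0.144) and *Hhip* of -0.75 (adjusted p = 0.117), with ranges that overlapped. *Shh* had -0.37 (adjusted p = 0.321) with both means under 50, and *Gli3* -0.15 (adjusted p = 0.438). These values moved with the aged injured arrays. Without replicate 1 the log2 difference of *Shh* was -0.18, of *Ptch1* -0.19 and of *Hhip* -0.32, that of *Boc* was -0.56 and that of *Cdon* -0.62, and no member was called. Without replicate 2, *Shh* (-0.69), *Ptch1* (-0.49), *Smo* (-0.45) and *Hhip* (-0.99) were called lower.

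**Figure D3:**
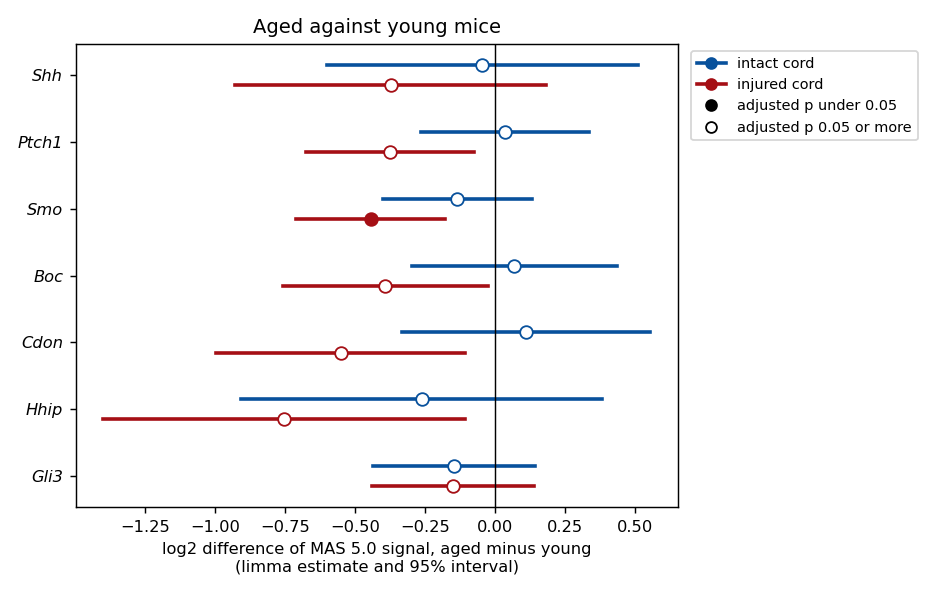
Log2 difference of MAS 5.0 signal, aged minus young, in intact and injured cord for the 7 members tested (limma estimate with 95% interval, 12 arrays); filled points have an adjusted p under 0.05. In injured cord all 7 estimates lie below 0 and *Smo* alone is filled, and in intact cord every interval spans 0.

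Cell type markers moved in both directions between the ages in injured cord. The summed signal of 13 astrocyte markers was 23697 to 24492 in young intact, 22557 to 22897 in aged intact, 22321 to 25235 in young injured and 11858 to 19205 in aged injured mice, the lowest being aged injured replicate 1. None of the 13 was under 50 as a group mean. After SCI 2 of the 13 astrocyte markers were higher and 3 lower in young mice, and 0 were higher and 10 lower in aged mice. In injured cord 6 of 13 were lower in aged mice and none was higher, among them *Gjb6* and *Gja1*, which encode gap junction proteins of astrocytes (log2 difference -1.22 and -0.54). The same 6 were lower without aged injured replicate 1, and in a fit of only the injured arrays none was called. Oligodendrocyte markers moved too, with 1 of 9 called lower, 8 of 9 lower at an unadjusted p under 0.05 and sums of 25824 to 27726 in young and 16945 to 23563 in aged injured mice. In intact cord the median sum of the oligodendrocyte markers was 28744 in young and 23619 in aged mice. There 0 of 9 were called and 4 of 9 were lower at an unadjusted p under 0.05. Neuron markers had a median log2 difference of -1.04 between the ages after SCI, with 0 of 11 called by limma and 1 of 11 at an unadjusted p under 0.05, and of -0.14 without aged injured replicate 1. Of 12 markers of microglia and macrophages 4 were called higher in aged injured cord and 0 lower. Of 5 markers of dividing cells 3 were higher and 0 lower, and of 10 markers of fibroblasts and meninges 2 were lower and 0 higher. Without aged injured replicate 1, the calls were 2 higher, 1 higher and 2 lower. The part of these markers in the members' values was not tested.

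**Figure D4:**
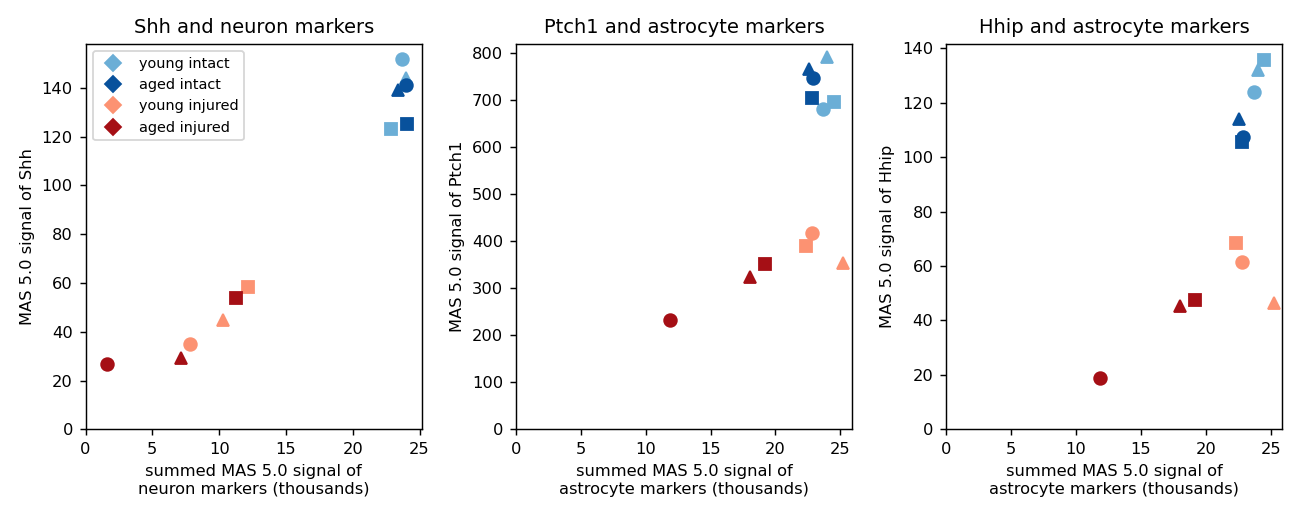
MAS 5.0 signal of *Shh* against the summed signal of 11 neuron markers, and of *Ptch1* and *Hhip* against that of 13 astrocyte markers, on linear axes; each point is 1 mouse, coloured by group, and circles, squares and triangles are replicates 1, 2 and 3. In all 3 panels the injured cords of both ages lie below the intact cords. The astrocyte sums add markers of which 2 rose and 3 fell after SCI in young mice, and the part of the markers in the members' values was not tested. Aged injured replicate 1 lies lowest in all 3 panels.

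Whether SCI acted differently on the members at the 2 ages was tested as an interaction, the injury effect in aged mice minus that in young mice. No member was called, where 0.438% of all genes were called, 0.133% with a positive and 0.304% with a negative value. *Cdon* alone had an unadjusted p under 0.05 (interaction -0.66 on the log2 scale, 95% interval -1.29 to -0.038, adjusted p = 0.281), where 16.2% of all genes had one. All 7 values were below 0, with a median of -0.41 beside -0.062 over all genes, but that of *Gli3*, at -0.0048, turned above 0 with quantile normalization (0.11). For *Boc*, called after SCI in young mice only, the interaction was -0.46 (95% interval -0.98 to 0.058, adjusted p = 0.361), so a difference between the ages was not shown.

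Other genes of the pathway were read from lists of which 70 genes were analysed here and 46 were tested. After SCI 17 were higher and 15 lower in young mice, and 15 higher and 16 lower in aged mice, near the background shares given above. Those shares, 33.9% higher and 34.1% lower in young mice and 35.6% and 39.9% in aged mice, also stand beside each list below. Their median log2 difference was -0.00087 in young and -0.067 in aged mice. The ligand genes *Ihh* and *Dhh* were not tested, with group means of 6.70 to 8.87 and of 11.4 to 27.8.

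Of the genes for processing and release of the ligand, *Disp2*, a relative of the transporter that releases it, was the only one of 6 tested. It fell from 955 ± 47.7 to 318 ± 56.9 in young mice and from 889 ± 13.1 to 198 ± 123 in aged mice (SD, n = 3 each; adjusted p = 0.00741 and 0.00041). Its log2 difference in aged mice was -2.44, and -1.76 without aged injured replicate 1. With the mean over all its probes it was -1.49 in aged mice, and the call in young mice ended (log2 difference -0.39, adjusted p = 0.29). Of 3 other proteins that bind the ligand, *Gas1*, a co-receptor anchored in the membrane, rose 1.86-fold in young mice (adjusted p = 0.00311) and 1.43-fold in aged mice (adjusted p = 0.0434). The call in aged mice ended without aged injured replicate 1 (log2 difference 0.31, adjusted p = 0.144), without 6 other arrays in turn (0.0527 to 0.112), without the filter (0.0545) and without the trend (0.0506). With the mean over all probes of *Gas1* its calls ended at both ages (adjusted p = 0.0801 in young and 0.296 in aged mice). Of the glypicans, cell-surface proteoglycans, *Gpc3* rose 2.65-fold in young mice (adjusted p = 0.00133) and had a log2 difference of 0.48 in aged mice (adjusted p = 0.137). *Gpc5* fell 3.87-fold in young mice and at least 6.15-fold in aged mice (adjusted p = 0.00446 and 0.000206).

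Of 5 genes tested that act on Smo, 1 rose and 2 fell at each age. *Arrb2*, a beta-arrestin, rose 2.48-fold in young and 3.29-fold in aged mice, while *Arrb1*, another beta-arrestin, fell with log2 differences of -0.62 and -0.81. *Gpr161*, a receptor of the cilium that dampens the pathway, fell with log2 differences of -0.77 and -1.21. Of 15 genes tested that act on Gli proteins, 4 rose and 5 fell at each age. *Prkacb*, a subunit of protein kinase A, fell with log2 differences of -0.66 in young and -0.81 in aged mice. *Gsk3b*, a kinase, fell with -0.67 and -0.95. With the mean over all its probes *Gsk3b* had -0.42 and -0.47, and both calls held. *Dyrk2*, another kinase, rose with log2 differences of 1.25 and 1.21. *Csnk1a1*, which encodes casein kinase 1 alpha, rose with log2 differences of 0.29 and 0.25, and *Btrc*, a subunit of the ubiquitin ligase that acts on Gli proteins, fell 3.08-fold in young and 3.99-fold in aged mice. The call of *Csnk1a1* in young mice ended with the mean over all its probes (adjusted p = 0.0625). *Sufu*, the cytoplasmic inhibitor of Gli proteins, was named after its values were seen, and rose from 36.5 ± 4.68 to 53.3 ± 7.56 in young mice (adjusted p = 0.0142) and from 36.7 ± 6.67 to 55.1 ± 3.44 in aged mice (SD, n = 3 each; adjusted p = 0.00735). Its call in young mice ended with quantile normalization (adjusted p = 0.0778) and without young injured replicate 1 or young intact replicate 1 (0.0595 and 0.0614).

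Of 11 genes tested for transport in the primary cilium, the organelle in which Smo acts, 3 rose and 4 fell in young mice and 2 rose and 6 fell in aged mice. *Kif3a*, a motor subunit, fell with log2 differences of -0.66 and -0.67, *Ift57*, of the transport complex, with -0.42 and -0.71 and *Dync2h1*, the heavy chain of the returning motor, with -0.62 and -0.70. *Ift52*, of the same complex, rose with log2 differences of 0.66 and 0.47. *Ift122*, also of that machinery, fell in aged mice (-0.49) and had -0.040 in young mice. Among genes known as targets in other tissues, 7 rose and 2 fell in young mice and 7 rose and 1 fell in aged mice. *Ccnd2*, a cyclin, rose with log2 differences of 1.17 and 1.22 and *Rab34*, a small GTPase, with 1.32 and 1.27. *Cdk6*, a kinase of the cell cycle, rose at least 2.50-fold in young and at least 4.83-fold in aged mice. *Bmp4*, a secreted signal, rose 2.25-fold in young and 1.66-fold in aged mice, and the cyclin gene *Ccnd1* 1.91-fold and 3.46-fold.

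Genes of dividing cells, like the cyclins, rose after SCI at both ages. The summed signal of 5 markers, all under 50 in intact cord, was 80.6 to 135 in young intact, 59.3 to 92.4 in aged intact, 462 to 750 in young injured and 845 to 1894 in aged injured mice, and their part in these results was not tested.

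**Figure D5:**
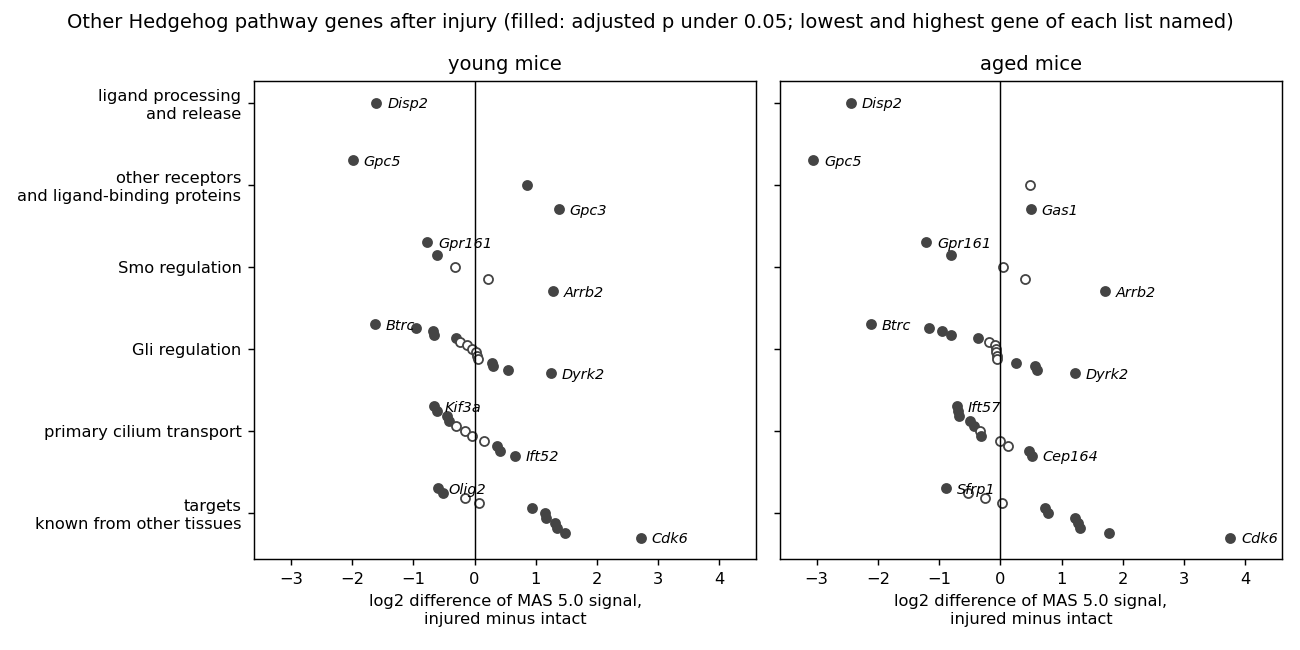
Log2 difference of MAS 5.0 signal, injured minus intact, for 46 other pathway genes by list, in young and aged mice; each point is 1 gene, filled at an adjusted p under 0.05, and the lowest and the highest gene of each list are named. Points lie on both sides of 0 in the lists of more than 1 gene, and *Cdk6* lies farthest right at both ages.

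Between the ages, 0 of these 46 genes were called by limma in intact cord, and 6 had an unadjusted p under 0.05, beside 0.809% and 10.2% of all genes. In injured cord 2 had a higher and 5 a lower signal in the aged mice, beside 4.41% and 4.58% of all genes. The signal of *Ccnd1* averaged 975 ± 157 in the aged against 483 ± 31.4 in the young group, and that of *Cdk6* 241 ± 66.8 against 125 ± 21.1 (SD, n = 3 each; adjusted p = 0.0028 and 0.0295). Lower in aged mice were *Bmp4* (109 ± 11.0 against 200.1 ± 42.5, adjusted p = 0.0104), *Foxc2*, a transcription factor gene (136 ± 18.6 against 236 ± 55.8, adjusted p = 0.0416), *Sfrp1*, a secreted Wnt antagonist (44.4 ± 3.26 against 62.6 ± 4.27, adjusted p = 0.0177), *Ift122* (120.1 ± 5.06 against 152 ± 3.52, adjusted p = 0.0249) and *Spop*, an adaptor of a ubiquitin ligase (732 ± 22.3 against 852 ± 24.5, adjusted p = 0.0299; SD, n = 3 each). All 7 calls ended in a fit of only the injured arrays (adjusted p of 0.0736 to 0.193). Those of *Cdk6*, *Ift122* and *Spop* also ended without any 1 injured array other than aged injured replicate 2 (0.0511 to 0.096), that of *Foxc2* without any of 8 arrays in turn (0.0541 to 0.109) and that of *Sfrp1* without young injured replicate 2 (0.0561). With the mean over all probes of the gene, the calls of *Cdk6* (adjusted p = 0.165) and *Spop* (0.228) ended too. The median log2 difference of the 46 between the ages after SCI was -0.12. The interaction was called for 0 of the 46, and 8 had an unadjusted p under 0.05, beside 0.438% and 16.2% of all genes.

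For each member tested, the genes with the most similar pattern over the 12 arrays were found among 10504 other genes, by the root-mean-square difference of log2 signals after each gene's own mean was taken off. They were *Ypel4*, *Slc25a14* and *Fbxo9* for *Shh* (0.10 to 0.12), *Klhl11*, *Ssbp3* and *Tacc2* for *Ptch1* (0.075 to 0.085), *Nxn*, *Sparc* and *Cavin3* for *Smo* (0.073 to 0.10) and *Zic1*, *Esyt2* and *Zfyve19* for *Boc* (0.096 to 0.14). For *Cdon* they were *Foxp2*, *Wdsub1* and *Ltbp4* (0.18 to 0.19), for *Hhip* *Gpr37*, *Shroom2* and *Nlgn1* (0.13 to 0.14) and for *Gli3* *Cant1*, *Tnip1* and *Gtf2h3* (0.075 to 0.087). The members' own SD of log2 signals over the 12 arrays was 0.99 for *Shh*, 0.87 for *Hhip* and 0.62 for *Ptch1*, and 0.19 to 0.44 for the other members tested.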

How the data were processed

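Each mouse gave RNA for a separate Affymetrix GeneChip of the mouse genome. The authors converted the scanned images with the MAS 5.0 algorithm (version 5 per the labels), and the deposited values are linear signal intensities, scaled per array. The platform annotation, which can be old, named a lone gene for 34958 of the 45101 probes, several genes for 932 and no gene for 9211. Groups were taken from the labels, which do not say which arrays share a processing batch. In the main fit, p-values rest on 1 spread per gene between mice of a group (3 mice each). This spread is shared over all 4 groups and moderated across genes. Log2 signals of 10511 genes (1 probe per gene, mean above 50 in at least 1 group) were fitted with limma 3.58.1 in R 4.3.3 (lmFit, then eBayes with a trend), with 1 mean per group over all 12 arrays, after a test on simulated data. Where a group mean was under 50, it was set to 50 and the fold given as "at least", and no fold was given where both were. Alternatives were quantile normalization, no filter, signals under 20 set to 20, no trend, array weights, the mean over probes, a replicate block, each array left out, the compared arrays alone and the study's cutoffs (signal above 50, ratio above 2). All 9 members and, of the other lists, the called genes (at most the 4 of smallest adjusted p per list and comparison) were named. Genes named after their values were seen are marked as such. The members and lists were chosen with earlier results of these data known. Replicate numbers are in the labels, but same-numbered arrays deviated together in part only, and the numbers were not taken to pair mice.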

Additional observations from a re-analysis of the deposited data

How the results depend on the processing

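The number of arrays limits the precision, and signals under 50 limit *Gli1* and *Gli2*. For members, the counts called in injured against intact cord stayed within 1.5 times under the other alternatives run, except that 2 of 9 passed in young mice under the study's cutoffs. The 1 member called between the ages after SCI became 0 without the filter, without the trend, in a fit of only the compared arrays, under the study's cutoffs and with a replicate block, 2 with array weights and 0 to 4 when 1 array was left out. The replicate block changed no other count of members by over 1.5 times; same-numbered arrays had correlations of -0.11 to 0.67, and 4 of 12 arrays deviated most like an array of their own number. The mean of log2 signals over all probes left no member above 50, so that setting gave no value for them.

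For other pathway genes, the 0 called between the ages in intact cord became 5 with array weights and 4 with only the compared arrays. The 7 called in injured cord became 11, 0 and, under the study's cutoffs, 1, and 2 to 13 with 1 array left out (13 without aged injured replicate 2, 2 without young injured replicate 2). Under the study's cutoffs the 32 and 31 called after SCI in young and aged mice became 12 and 12. The 0 interactions became 1 with quantile normalization, with signals under 20 set to 20 and with the mean over probes, 3 with array weights and 0 to 3 with 1 array left out.

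Signs turned only for differences that did not pass the test: *Shh* in intact cord (-0.133 to 0.0185 with 1 array left out), *Ptch1* in intact cord (-0.0065 to 0.102 with 1 array left out), *Boc* in aged mice after SCI (-0.00024 with quantile normalization, -0.053 with array weights, -0.14 to 0.17 with 1 array left out, the lowest without aged injured replicate 1) and the interaction of *Gli3* (0.11 with quantile normalization, 0.052 with array weights, -0.11 to 0.12 with 1 array left out). The causes were not tested.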
